A study of Mus musculus with 12 samples.

Results

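Aminoacyl-tRNA synthetases are the enzymes that load each amino acid onto its transfer RNA. The 36 genes described here were taken by symbol from the annotation of the arrays, 20 for cytosolic enzymes and 16 for mitochondrial ones, whose symbols end in 2. A probe set (a group of oligonucleotides that together measure one transcript) carrying a single gene symbol was found for 35 of them, out of 18194 genes named in this way. The gene without such a probe set was Dars, the aspartyl enzyme, and Mars was listed under its newer symbol Mars1. Where a gene had several probe sets, the one with the highest mean was used. The level filter kept genes with a mean log2(signal + 32) of at least 6.76. Above it lay 34 of the 36, among 10583 genes tested, and the one left below it was Mars2, the mitochondrial methionyl enzyme. All 19 measured cytosolic genes and 15 of the 16 mitochondrial ones were therefore tested.

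The arrays measured total RNA of mouse blood cells on 12 one-colour Affymetrix arrays in 4 groups of 3. The groups were Stat5 knockout cells with CMP, Stat5 knockout cells without CMP, control cells with CMP and control cells without CMP. The knockout mice lack both Stat5a and Stat5b in blood cells, and STAT5 proteins are transcription factors switched on by cytokine receptors. The labels do not give the promoter or method behind the deletion, the strain, the age, the cell type, or the dose and time of CMP. They use CMP once for a treatment and once in a way that could name the cells, so "with CMP" and "without CMP" stand only for the plus or minus sign of an array's title. One knockout array without CMP is called a control in its treatment protocol. Its Stat5a and Stat5b signals lay below those of every control array. The labels do not say whether the arrays of a group came from separate animals or cultures, so the p-values measure only the spread between these samples, which may be technical.

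The form of the titles sorted the arrays into 3 naming sets, A to C, and 1 array of every group fell in each set. Values are listed below in that order. Signals are MAS5 values on a linear scale with no physical unit. Stat5a gave 28.9 to 90.1 on the knockout arrays, against 660 to 1436 on the control arrays, and Stat5b gave 7.28 to 82.8 on the knockout arrays, against 1036 to 2177 on the control arrays. All 4 leukocyte markers were above the level filter, among them Ptprc, which encodes CD45, and all 6 progenitor markers were too. So were all 5 neutrophil, 4 megakaryocyte, 4 mast cell and 4 dendritic cell markers, and 3 of 4 macrophage markers. The markers thus do not single out progenitors. The summed neutrophil signal varied widely between arrays, from 8140 to 126588 in controls with CMP. Of the 4 T cell markers 1 was above the filter, and of the 4 markers of tissues other than blood 1 was. Arrays of set B stood apart in beta-actin. Their ratio of 3′ to 5′ beta-actin probe sets, a sign of RNA or labelling quality that is low in intact RNA, was 4.3 to 5.78 on the log2 scale, against 0.25 to 2.14 in the other sets. With CMP the same ratio for Gapdh was 3.89, 6.09 and 1.7 in knockouts and 4.56, 4.82 and 2.07 in controls. Without CMP it was 1.58, 4.72 and 1.1 in knockouts and 2.39, 4.83 and 1.28 in controls. By Gapdh the set A arrays with CMP thus came near set B. The knockout array with CMP of set B had the highest ratio for both genes. On it the median deviation from the mean of the group was -0.74 for the cytosolic and -0.69 for the mitochondrial genes on the log2 scale.

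In the cytosol the synthetases serve the ribosomes that translate nuclear messages. A second, separate set of enzymes, also encoded in the nucleus, works inside mitochondria on the few proteins of the mitochondrial genome. The glycyl enzyme Gars and the lysyl enzyme Kars serve both compartments, so no mitochondrial partner of either is listed. When amino acids run short or the endoplasmic reticulum is stressed, phosphorylation of the initiation factor eIF2 raises the translation of ATF4, a transcription factor that is known to bind many cytosolic synthetase genes at C/EBP-ATF response elements. Several cytosolic enzymes are held in one multisynthetase complex by the scaffold proteins AIMP1, AIMP2 and EEF1E1.

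The windows around the annotated starts of these genes were read for a pair of motifs. Windows of 300 bases, from 250 before to 50 after the start, were matched for 27 of the 36 members in the RefSeq table of build GRCm38.p6. Those without a window were Cars, Hars, Lars, Nars, Rars, Vars, Wars, Hars2 and Pars2. The C/EBP-ATF response element was searched as TGATGNAA and the E-box of MYC and MAX as CACGTG, each on both strands, and no matches of the 2 motifs overlapped in the members' windows. TGATGNAA was found in 5 of 13 cytosolic windows (38.5%) and in 0 of 14 mitochondrial ones, against 1304 of all 32851 windows in the table (3.97%). CACGTG was found in 4 of 13 cytosolic windows (30.8%), those of Aars, Iars, Tars and Farsb, and in 1 of 14 mitochondrial windows (7.14%), that of Ears2, against 7.15% of all windows. A match is a description of letters and not evidence of binding.

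Printed here are the 5 windows with a TGATGNAA match, then Sars, whose signal was also higher with CMP in controls but whose window holds neither motif, and Tars2, the mitochondrial counterpart of Tars. The windows lie at chr8:111033592-111033891 for Aars on the forward strand, chr6:55037751-55038050 for Gars (forward), chr13:49681880-49682179 for Iars (forward), chr15:11399609-11399908 for Tars (reverse), chr4:129189653-129189952 for Yars (forward), chr3:108445210-108445509 for Sars (reverse) and chr3:95754928-95755227 for Tars2 (reverse). Each is written 5′ to 3′ on the gene's strand, and capitals mark the matches to either motif.
Aars: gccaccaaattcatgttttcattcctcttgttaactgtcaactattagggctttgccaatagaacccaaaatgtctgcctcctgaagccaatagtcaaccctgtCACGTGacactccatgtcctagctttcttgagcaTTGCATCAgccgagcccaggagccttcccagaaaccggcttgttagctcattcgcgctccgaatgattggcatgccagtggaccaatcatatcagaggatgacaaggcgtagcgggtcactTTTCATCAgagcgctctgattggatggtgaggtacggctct
Gars: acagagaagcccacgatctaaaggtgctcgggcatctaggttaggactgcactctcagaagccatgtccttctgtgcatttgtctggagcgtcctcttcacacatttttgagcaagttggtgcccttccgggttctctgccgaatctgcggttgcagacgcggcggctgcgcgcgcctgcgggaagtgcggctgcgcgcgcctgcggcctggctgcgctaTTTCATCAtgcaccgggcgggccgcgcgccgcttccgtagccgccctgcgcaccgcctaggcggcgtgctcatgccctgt
Iars: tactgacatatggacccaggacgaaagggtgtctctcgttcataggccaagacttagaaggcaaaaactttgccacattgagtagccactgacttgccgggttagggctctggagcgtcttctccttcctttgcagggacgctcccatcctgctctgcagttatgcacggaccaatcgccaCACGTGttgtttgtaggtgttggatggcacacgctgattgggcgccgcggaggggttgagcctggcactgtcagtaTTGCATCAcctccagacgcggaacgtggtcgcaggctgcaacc
Tars: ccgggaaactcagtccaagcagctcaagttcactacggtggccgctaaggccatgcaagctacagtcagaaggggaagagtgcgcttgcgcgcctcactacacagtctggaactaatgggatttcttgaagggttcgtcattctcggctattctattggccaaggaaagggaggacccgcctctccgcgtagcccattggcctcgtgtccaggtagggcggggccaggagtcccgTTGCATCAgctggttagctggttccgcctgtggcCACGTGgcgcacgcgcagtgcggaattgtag
Yars: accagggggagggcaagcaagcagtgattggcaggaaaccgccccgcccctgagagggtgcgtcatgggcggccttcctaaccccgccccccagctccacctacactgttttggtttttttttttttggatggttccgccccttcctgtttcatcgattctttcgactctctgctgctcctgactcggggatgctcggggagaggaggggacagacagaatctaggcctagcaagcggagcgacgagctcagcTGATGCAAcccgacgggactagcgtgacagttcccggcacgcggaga
Sars: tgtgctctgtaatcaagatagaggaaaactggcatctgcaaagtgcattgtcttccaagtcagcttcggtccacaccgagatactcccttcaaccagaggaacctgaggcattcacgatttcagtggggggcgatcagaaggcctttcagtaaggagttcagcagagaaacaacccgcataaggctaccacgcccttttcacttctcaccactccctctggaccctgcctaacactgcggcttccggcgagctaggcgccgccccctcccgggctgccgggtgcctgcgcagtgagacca
Tars2: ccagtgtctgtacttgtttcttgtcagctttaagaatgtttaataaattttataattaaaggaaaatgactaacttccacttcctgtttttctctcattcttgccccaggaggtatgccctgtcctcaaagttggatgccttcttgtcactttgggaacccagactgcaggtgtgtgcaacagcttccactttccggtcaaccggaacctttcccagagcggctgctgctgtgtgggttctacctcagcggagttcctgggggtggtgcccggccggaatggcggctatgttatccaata

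Positions are read from the annotated start used for each window, which is base 0. For Aars, Yars and Tars2 that start lies inside the gene, whose outer end is at chr8:111027778, chr4:129189734 and chr3:95756365. The TGATGNAA matches began at -112 and 9 in Aars, at -30 in Gars, at 7 in Iars, at -15 in Tars and at 3 in Yars. In Aars, Gars, Iars and Tars the matches appear as TTGCATCA or TTTCATCA, which is the motif on the opposite strand, and in Yars as TGATGCAA. Of the 6 genes with a window that were higher with CMP in controls, 5 had a match, while Cars, Lars and Nars, also higher, had no window. No match was found in Farsa and Kars, which were lower with CMP in knockouts, nor in Dars, Eprs, Farsb, Mars, Qars and Sars. A window without a match is the usual case, since 3.97% of all windows hold one.

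**Figure D1:**
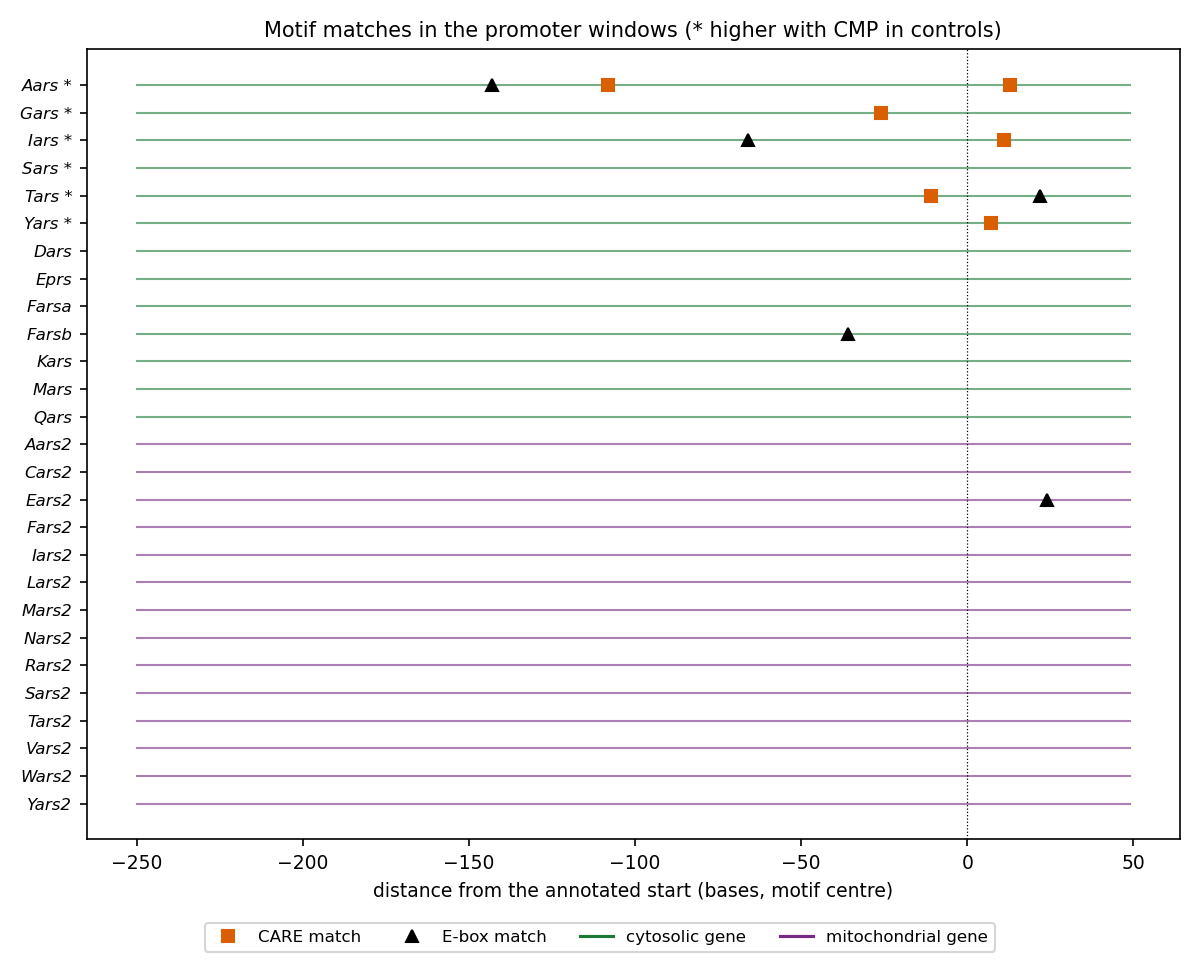
Positions of TGATGNAA (squares) and CACGTG (triangles) matches in the promoter windows of 27 synthetase genes, drawn as distance in bases of the motif's centre from the annotated start. Squares appear in 5 cytosolic genes, all marked with a star for a higher signal with CMP in controls, and in none of the 14 mitochondrial genes.

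Cytosolic synthetase signals were higher with CMP for about as many genes in knockouts as in controls, while mitochondrial synthetase genes called at all were lower. Among the 34 tested members 13 were called in knockouts, against 18.8% of all genes, and 13 in controls, against 22.1% of all genes. In knockouts 8 of 19 tested cytosolic genes were higher with CMP and 2 were lower, against 9.03% of all genes higher and 9.72% lower. In controls 9 of 19 were higher and 0 lower, against 10.6% of all genes higher and 11.6% lower. Of the 15 tested mitochondrial genes, 0 were higher and 3 lower in knockouts, and 0 were higher and 4 lower in controls. With arrays centred on their medians, 7 cytosolic genes were higher and 2 lower in knockouts, and 5 were higher and 2 lower in controls. In that setting 3 mitochondrial genes were lower in knockouts and 9 in controls. The shares of all genes given above are for the deposited scaling. Median centring called fewer of all genes tested in knockouts and more in controls than that scaling did. At an unadjusted p under 0.05, cytosolic genes were higher in 11 cases and lower in 3 in knockouts, and higher in 10 and lower in 3 in controls. Mitochondrial genes at that p were higher in 0 cases and lower in 5 in knockouts, and higher in 0 and lower in 8 in controls. Over all genes tested, 15.7% were higher and 18.2% lower at that p in knockouts, and 17.1% were higher and 19.2% lower in controls. The calls use limma on log2 of the signal plus 32 and a Benjamini-Hochberg adjusted p under 0.05 over all genes tested, and each difference below is on that scale, with minus without CMP.

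The median cytosolic difference was 0.67 in knockouts and 0.44 in controls, and the median mitochondrial difference was -0.42 in knockouts and -0.67 in controls. Over all genes tested the median was -0.06 in knockouts and -0.02 in controls. Within sets A, B and C the cytosolic median was 0.76, 0.20 and 0.69 in knockouts and 0.52, 0.39 and 0.56 in controls. The mitochondrial median was -0.22, -0.51 and -0.24 in knockouts and -0.49, -0.74 and -0.58 in controls. In all 6 comparisons of a set and a genotype the cytosolic median lay above 0 and the mitochondrial one below it. Centring the arrays on their medians in place of the deposited scaling moved the median of all genes to -0.15 in knockouts and -0.28 in controls. The cytosolic median then became 0.58 in knockouts and 0.17 in controls, and the mitochondrial one -0.52 in knockouts and -0.94 in controls, so neither list changed sign.

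**Figure D2:**
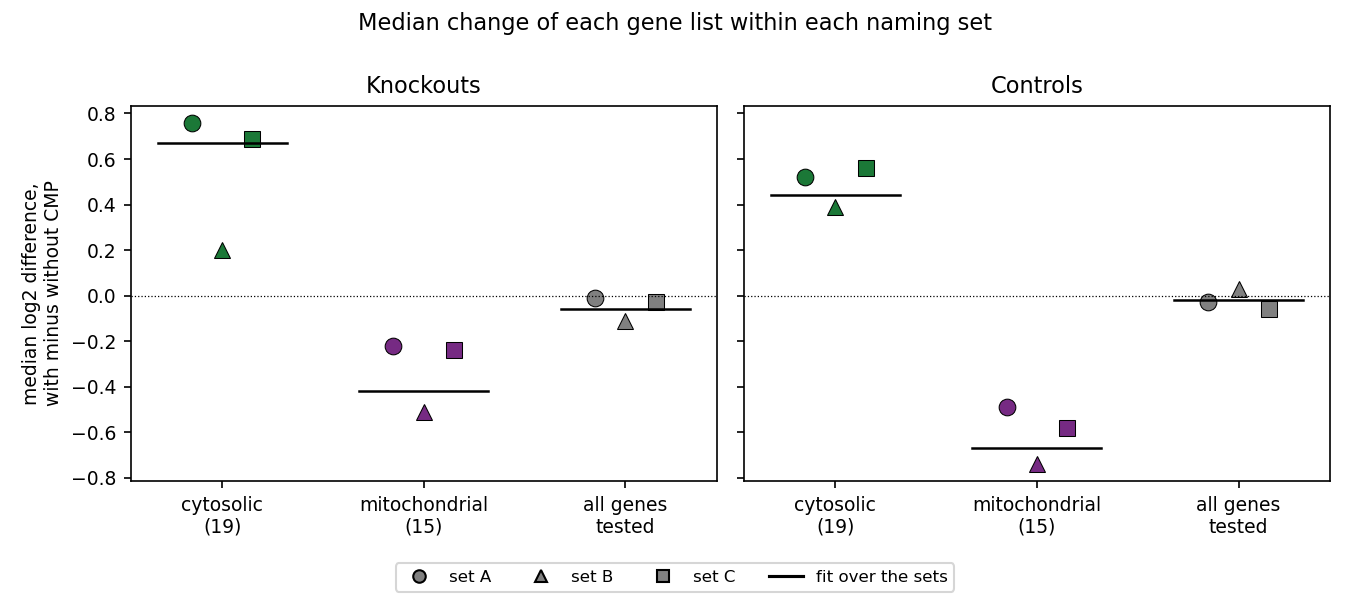
Median log2 difference with minus without CMP of the cytosolic genes, the mitochondrial genes and all genes tested, in knockouts (left) and controls (right). Points are the naming sets and the bar is the fit over the sets, with cytosolic medians between 0.20 and 0.76 and mitochondrial ones between -0.74 and -0.22.

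Other features of the arrays moved with CMP as well. The beta-actin 3′ to 5′ ratio was higher with CMP by 1.63, 1.05 and 0.24 in the knockouts of sets A, B and C and by 1.35, 0.76 and 0.59 in the controls on the log2 scale. With that ratio as a covariate 4 cytosolic genes were higher in knockouts and 7 in controls. Of the mitochondrial genes 0 were lower in knockouts and 2 in controls. Fewer of all genes tested were also called in that fit in both genotypes, so the fall was not confined to the synthetases. Of 6 listed erythroid markers 4 were on the array, and their summed signal was 649 to 1504 in knockouts with CMP, against 4195 to 17795 in knockouts without it, and 900 to 3170 in controls with CMP, against 4915 to 28336 in controls without it. Klf1, a red-cell transcription factor, and Car1, the carbonic anhydrase of red cells, were the 2 of these called lower in each genotype, and none of the 4 was listed at 0. Of the 6 progenitor markers Cd34 alone was called, lower by -1.04 in knockouts and -1.07 in controls, while Kit had 0.16 in knockouts and 0.29 in controls. Also lower in both genotypes were Cpa3, a mast cell protease, by -1.92 in knockouts and -2.02 in controls, and Nkg7, a cytotoxic granule gene, by -1.96 in knockouts and -2.02 in controls. Of the 4 leukocyte markers Ptprc was higher by 0.78 in knockouts and 0.49 in controls and Cd53 by 1.18 in controls, whereas Coro1a had -0.01 in knockouts and -0.03 in controls and Laptm5 -0.07 in knockouts and 0.37 in controls without passing. The part of these features in the synthetase differences was not tested. In RNA of mixed cells, fewer cells of a type and less RNA per cell cannot be told apart.

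Aars, the alanyl enzyme, gave 7329, 3192 and 6913 in knockouts with CMP, against 1952, 1757 and 2134 in knockouts without it. In controls it gave 8841, 5493 and 5518 with CMP, against 2191, 1722 and 2429 without. Every array with CMP lay above every array without it in both genotypes. The difference was 1.47 ± 0.23 in knockouts (SE, 3 arrays a group, adjusted p = 0.00146) and 1.61 ± 0.23 in controls (adjusted p = 0.00085), or 2.78-fold and 3.05-fold. Aars passed the threshold in all 29 alternative settings in both genotypes.

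The glycyl enzyme Gars gave 10457, 6794 and 10073 in knockouts with CMP, against 4884, 3846 and 5081 in knockouts without it. For controls the signals were 10700, 7716 and 9173 with CMP, against 5633, 4127 and 4596 without. The groups did not overlap in either genotype, and the differences of 0.96 ± 0.14 in knockouts (adjusted p = 0.000959) and 0.94 ± 0.14 in controls (adjusted p = 0.00103) were close to each other.

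Iars, the isoleucyl enzyme of the multisynthetase complex, gave 6410, 10726 and 5757 in knockouts with CMP, against 2674, 2895 and 2980 in knockouts without it, and 6243, 7916 and 5656 in controls with CMP, against 2981, 2588 and 2823 in controls without it. Its groups were fully apart, and set B was the highest of the sets with CMP. The difference was 1.36 ± 0.20 in knockouts (adjusted p = 0.00122) and 1.22 ± 0.20 in controls (adjusted p = 0.00183).

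Nars, the asparaginyl enzyme, gave 11835, 11667 and 13780 in knockouts with CMP, against 6962, 5271 and 8508 in knockouts without it, and 10955, 11379 and 13452 in controls with CMP, against 7618, 6639 and 8324 in controls without it. Lars, the leucyl enzyme, which is also known as a leucine sensor upstream of mTORC1, gave 5857, 6532 and 5708 in knockouts with CMP, against 2956, 3980 and 3110 in knockouts without it, and 6192, 6785 and 5709 in controls with CMP, against 3387, 3696 and 3703 in controls without it. For both genes no array without CMP reached the lowest array with it. Nars was higher by 0.87 ± 0.13 in knockouts (adjusted p = 0.00158) and 0.66 ± 0.13 in controls (adjusted p = 0.00547), and Lars by 0.85 ± 0.14 in knockouts (adjusted p = 0.00228) and 0.79 ± 0.14 in controls (adjusted p = 0.00285).

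Tars, the threonyl enzyme, gave 4462, 1441 and 4320 in knockouts with CMP, against 2012, 806 and 2071 in knockouts without it. In controls its signals were 4688, 2364 and 4400 with CMP, against 2247, 1157 and 1983 without. The array with CMP was the higher of the pair in each set. The knockout groups overlapped because the array with CMP of set B, at 1441, lay below those without CMP of sets A and C. Tars was higher by 1.0 ± 0.19 in knockouts (adjusted p = 0.00446) and 1.07 ± 0.19 in controls (adjusted p = 0.00258).

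Cars, the cysteinyl enzyme, gave 1518, 173 and 1322 in knockouts with CMP, against 285, 130 and 300 in knockouts without it. Control cells gave 1500, 635 and 1245 with CMP, against 249, 243 and 345 without. The controls did not overlap, whereas the knockout array with CMP of set B fell among those without it. Cars had the highest fitted difference of the cytosolic genes, 1.55 ± 0.42 in knockouts (adjusted p = 0.0256) and 1.83 ± 0.42 in controls (adjusted p = 0.00997). Without the knockout array with CMP of set B the knockout difference was 2.24.

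Yars, the tyrosyl enzyme, was higher by 0.79 ± 0.21 in knockouts (adjusted p = 0.0247) and 0.87 ± 0.21 in controls (adjusted p = 0.0134), with no overlap in either genotype. Sars, the seryl enzyme, was higher by 0.95 ± 0.26 in controls (adjusted p = 0.0229), and its difference of 0.76 ± 0.26 in knockouts did not pass the threshold (adjusted p = 0.0624). Without the knockout array with CMP of set B the knockout difference of Sars was 1.14 (adjusted p = 0.00233). The genes called higher in both genotypes were thus Aars, Cars, Gars, Iars, Lars, Nars, Tars and Yars, 8 of 8 called in knockouts and 8 of 9 called in controls. The effects of CMP in the 2 genotypes were measured on separate arrays, but a single fit over the arrays of both genotypes gave the calls. The naming set terms and the estimate of spread were shared, so the calls in the 2 genotypes are not independent. With only the arrays of the genotype in the fit, 6 cytosolic genes were called higher in knockouts and 9 in controls.

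**Figure D3:**
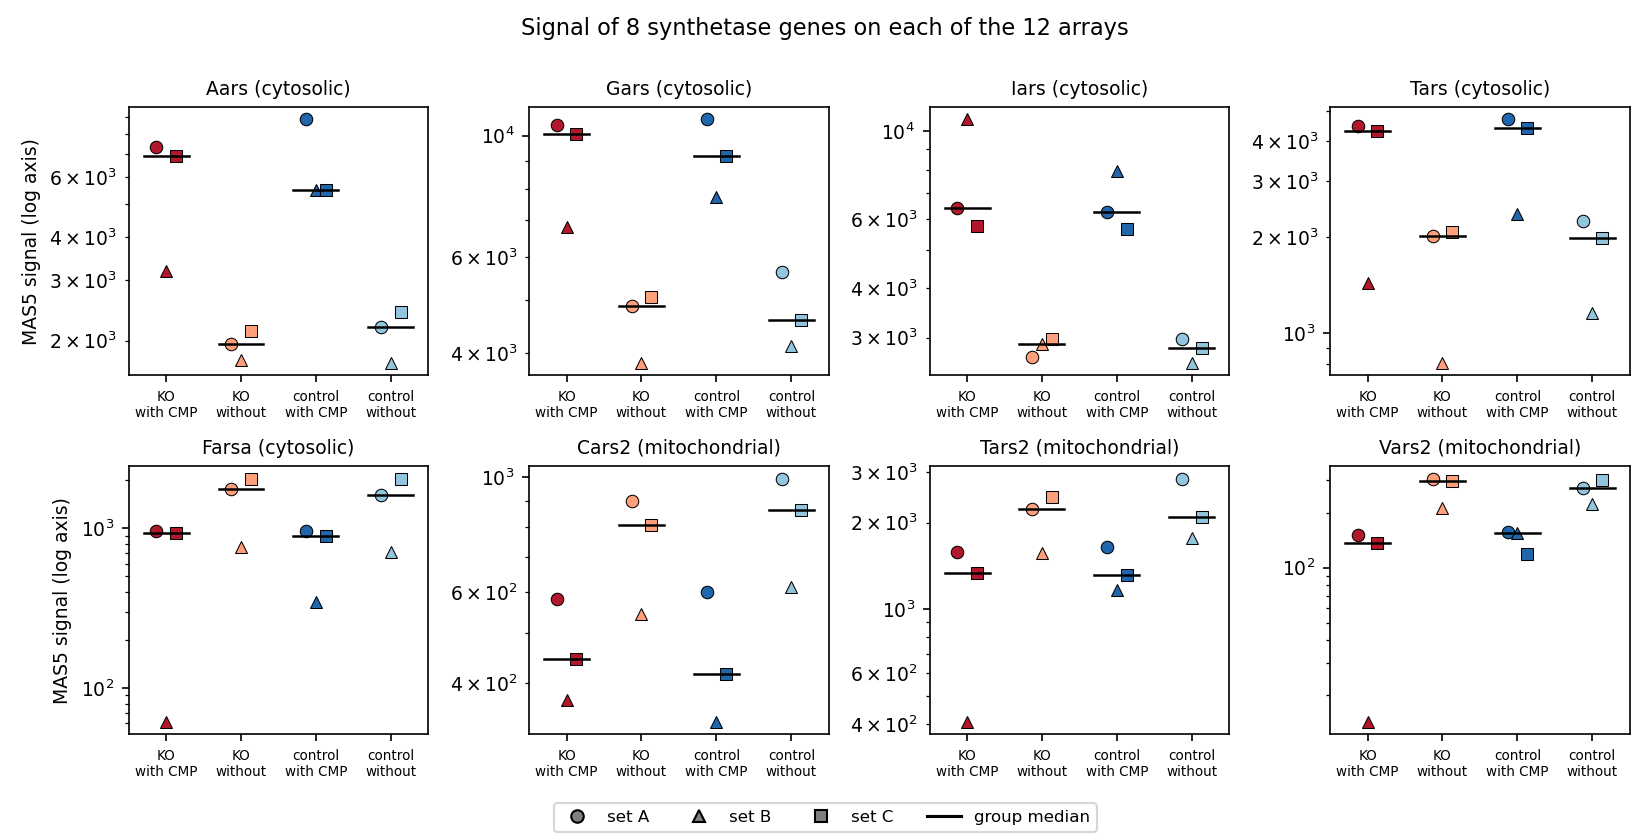
MAS5 signal (log axis) of 8 synthetase genes on each array, by group, with the naming sets as symbols and the group median as a bar. Aars, Gars and Iars arrays with CMP lie above all those without it, and the triangle of the knockout array with CMP in set B lies far below its group for Farsa, Tars2 and Vars2.

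Only 2 cytosolic genes, Farsa and Kars, were called lower with CMP, both in knockouts. Farsa, the catalytic alpha subunit of the phenylalanyl enzyme, gave 967, 61.4 and 932 in knockouts with CMP, against 1770, 767 and 2037 in knockouts without it, and 968, 346 and 897 in controls with CMP, against 1629, 714 and 2053 in controls without it. In each set the array with CMP was the lower one, but the groups overlapped in both genotypes since the array without CMP of set B was low. Its difference was -1.68 ± 0.39 in knockouts (adjusted p = 0.0135) and -0.96 ± 0.39 in controls (adjusted p = 0.102). Without the knockout array with CMP of set B it was -0.99 in knockouts (adjusted p = 0.0045) and -0.96 in controls (adjusted p = 0.00121). The other 3 probe sets of Farsa gave -0.01, -0.66 and 0.14 in knockouts, so the probe sets disagreed. Farsb, the beta subunit of the same enzyme, had a difference of -0.10 in knockouts and -0.29 in controls, and neither passed the threshold.

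The lysyl enzyme Kars gave 3202, 925 and 3540 in knockouts with CMP, against 3722, 3375 and 5348 in knockouts without it, and 3286, 981 and 3277 in controls with CMP, against 4166, 2583 and 5278 in controls without it. The knockout groups overlapped, and set B held the lowest arrays with CMP. Its difference was -0.88 ± 0.28 in knockouts (adjusted p = 0.0465) and -0.80 ± 0.28 in controls (adjusted p = 0.06). Without the knockout array with CMP of set B it was -0.60 in knockouts (adjusted p = 0.149) and passed at -0.80 in controls (adjusted p = 0.0233). The count of 2 lower cytosolic genes in knockouts became 0 without the knockout array without CMP of set B and 0 without set C. It was 1 without the knockout array with CMP of set B, the knockout array without CMP of set C, the control arrays without CMP of sets A, B or C, the control array with CMP of set C, set A or set B.

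The rest of the cytosolic genes did not pass the threshold in either genotype. Eprs, the bifunctional glutamyl-prolyl enzyme, had differences of 0.42 in knockouts and 0.40 in controls, and without the knockout array with CMP of set B it passed at 0.48 in knockouts (adjusted p = 0.045) and 0.40 in controls (adjusted p = 0.0333). Those of Mars, the methionyl enzyme, were 0.67 in knockouts and 0.44 in controls. For Rars, the arginyl enzyme, they were -0.62 in knockouts and -0.16 in controls. Vars, the valyl enzyme, had -1.32 in knockouts and -0.96 in controls, with differences of 0.33, -3.84 and -0.45 in the knockouts of sets A, B and C, and -0.29 in knockouts without the array with CMP of set B. Wars, the tryptophanyl enzyme, had -0.45 in knockouts and -0.33 in controls, with differences of 0.09, -1.61 and 0.16 in the knockouts of the sets, and the knockout value was 0.14 without the array with CMP of set B. Hars and Qars, the histidyl and glutaminyl enzymes, ranged from -0.34 to -0.14 over both genotypes. Without the knockout array with CMP of set B, Hars passed in controls at -0.34 (adjusted p = 0.0496) but not in knockouts at -0.25 (adjusted p = 0.237).

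The cytosolic genes were also counted by what is known of their control or place, with no test between the groups and few genes in each. These lists were chosen with earlier results of these data known. The counts are therefore a description only, and a part of ATF4 in them was not tested. Over all genes tested 9.03% were higher in knockouts and 10.6% in controls. Of 13 genes listed as ATF4 targets in mammalian cells, 8 were higher with CMP in knockouts and 9 in controls, with a median difference of 0.85 in knockouts and 0.87 in controls. The listed targets that did not pass were Eprs, Mars, Vars and Wars in both genotypes and Sars in knockouts. Of the 6 other cytosolic genes tested, 0 were higher in either genotype, also at an unadjusted p under 0.05, and all 6 differences were below 0 in both. Enzymes of the multisynthetase complex were higher in 2 of 7 cases, Iars and Lars, in knockouts and in controls. Free enzymes were higher in 6 of 12 cases in knockouts and 7 of 12 in controls. The lower genes in knockouts were 1 of each kind, Kars of the complex and Farsa of the free enzymes. By structural class, 4 of 9 class I genes and 4 of 9 class II genes were higher in knockouts, against 4 of 9 and 5 of 9 in controls.

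Without overlap between the groups, 7 cytosolic genes were higher and 0 lower with CMP in knockouts, and 9 were higher and 2 lower in controls. Over all genes tested 12.2% were higher and 11.4% lower without overlap in knockouts, and 12.6% higher and 12.5% lower in controls. The 2 lower ones in controls were Hars and Farsb, neither of which passed the adjusted threshold. Among mitochondrial genes 0 were higher and 2 lower in knockouts, namely Ears2 and Vars2, and 0 were higher and 8 lower in controls.

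Cars2, the mitochondrial cysteinyl enzyme, was the one mitochondrial gene called in both genotypes. Its signals were 582, 371 and 444 in knockouts with CMP, against 902, 543 and 808 in knockouts without it, and 601, 336 and 416 in controls with CMP, against 995, 613 and 866 in controls without it. In each set the array with CMP was the lower, and the controls did not overlap, while the knockouts overlapped between 543 and 582. Cars2 was lower by -0.65 ± 0.19 in knockouts (adjusted p = 0.0331) and -0.84 ± 0.19 in controls (adjusted p = 0.00878), opposite in sign to its cytosolic counterpart Cars. Another probe set above the level filter had -0.48 in knockouts and -0.11 in controls, and a dim one below it 0.20 and 0.23. Of 29 alternative settings, Cars2 passed the threshold in 13 in knockouts and in 24 in controls.

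Vars2, the mitochondrial valyl enzyme, gave 151, 14.3 and 137 in knockouts with CMP, against 307, 212 and 298 in knockouts without it, and 156, 155 and 119 in controls with CMP, against 272, 224 and 301 in controls without it. Tars2, the mitochondrial threonyl enzyme, gave 1581, 406 and 1339 in knockouts with CMP, against 2233, 1563 and 2445 in knockouts without it, and 1641, 1166 and 1316 in controls with CMP, against 2843, 1772 and 2086 in controls without it. Vars2 groups were apart in both genotypes, and Tars2 groups only in controls. Both were called lower in knockouts, Vars2 by -1.42 ± 0.37 (adjusted p = 0.0214) and Tars2 by -1.07 ± 0.28 (adjusted p = 0.0224). In controls Vars2 had -0.76 ± 0.37 (adjusted p = 0.16) and Tars2 -0.67 ± 0.28 (adjusted p = 0.107). Without the knockout array with CMP of set B the knockout differences were -0.84 for Vars2 (adjusted p = 0.042) and -0.63 for Tars2 (adjusted p = 0.0324), and the control differences kept their size at adjusted p = 0.0217 and 0.00697.

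Iars2, the mitochondrial isoleucyl enzyme, gave 697, 658 and 513 in knockouts with CMP, against 814, 581 and 613 in knockouts without it, and 668, 434 and 473 in controls with CMP, against 940, 888 and 831 in controls without it. Lars2, the mitochondrial leucyl enzyme, gave 1255, 1938 and 1028 in knockouts with CMP, against 1498, 1973 and 1529 in knockouts without it, and 1192, 1226 and 1010 in controls with CMP, against 1685, 2072 and 1616 in controls without it. For both genes the control groups were apart and the knockout groups overlapped. Iars2 was lower by -0.74 ± 0.20 in controls (adjusted p = 0.0194) and had -0.10 ± 0.20 in knockouts (adjusted p = 0.766), and Lars2 was lower by -0.63 ± 0.18 in controls (adjusted p = 0.0297) and had -0.28 ± 0.18 in knockouts (adjusted p = 0.312). Averaged over all its probe sets, Iars2 had 0.20 and Lars2 0.07 in controls, and their other probe sets, which are dim, had control differences above 0. For Iars2 the other probe set, with a mean log2 of 6.64, had 1.15 in controls. In a limma fit adjusted over all probe sets its p was 0.0373, against 0.0394 for the one used. The 2 probe sets of Iars2 thus disagreed in sign, and its call depends on which is used.

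Nars2, the mitochondrial asparaginyl enzyme, gave 359, 578 and 454 in knockouts with CMP, against 592, 333 and 739 in knockouts without it, and 354, 138 and 491 in controls with CMP, against 704, 493 and 765 in controls without it. The control groups were just apart, at 491 and 493, and in knockouts set B ran opposite to the other sets. Nars2 was lower by -1.06 ± 0.33 in controls (adjusted p = 0.0395) and had -0.20 ± 0.33 in knockouts (adjusted p = 0.707), or -0.68 (adjusted p = 0.0776) without the array with CMP of set B.

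The other tested mitochondrial genes, Aars2, Ears2, Fars2, Hars2, Pars2, Rars2, Sars2, Wars2 and Yars2, did not pass the threshold in either genotype. Their differences ran from -0.92 for Aars2 to 0.10 for Wars2 in knockouts and from -0.85 for Yars2 to 0.17 for Wars2 in controls. Rars2, the mitochondrial arginyl enzyme, came nearest in controls at -0.69 (adjusted p = 0.0538). Mars2 gave 6.08 to 111 in knockouts with CMP, 12.9 to 55.2 in knockouts without it, 2.64 to 35.6 in controls with CMP and 30.8 to 38.2 in controls without it, which is too low to compare. In all, 13 of 15 tested mitochondrial differences were below 0 in each genotype.

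The mitochondrial counts rested on few arrays. In knockouts the count of 3 lower genes was 1 without the knockout array without CMP of set A, 0 without that of set B and 0 without that of set C. In controls the count of 4 was 2, 1 and 0 without the control array without CMP of sets A, B and C, 1 without the control array with CMP of set B, and 9 without the knockout array with CMP of set B. Leaving out sets A, B or C whole gave 0, 5 and 0 in knockouts and 0, 7 and 0 in controls. The cytosolic counts of 8 higher genes in knockouts and 9 in controls stayed between 6 and 10 in both when 1 array was left out. They were 4 without set A and 2 without set C in knockouts, and 4 without set A and 3 without set C in controls.

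**Figure D4:**
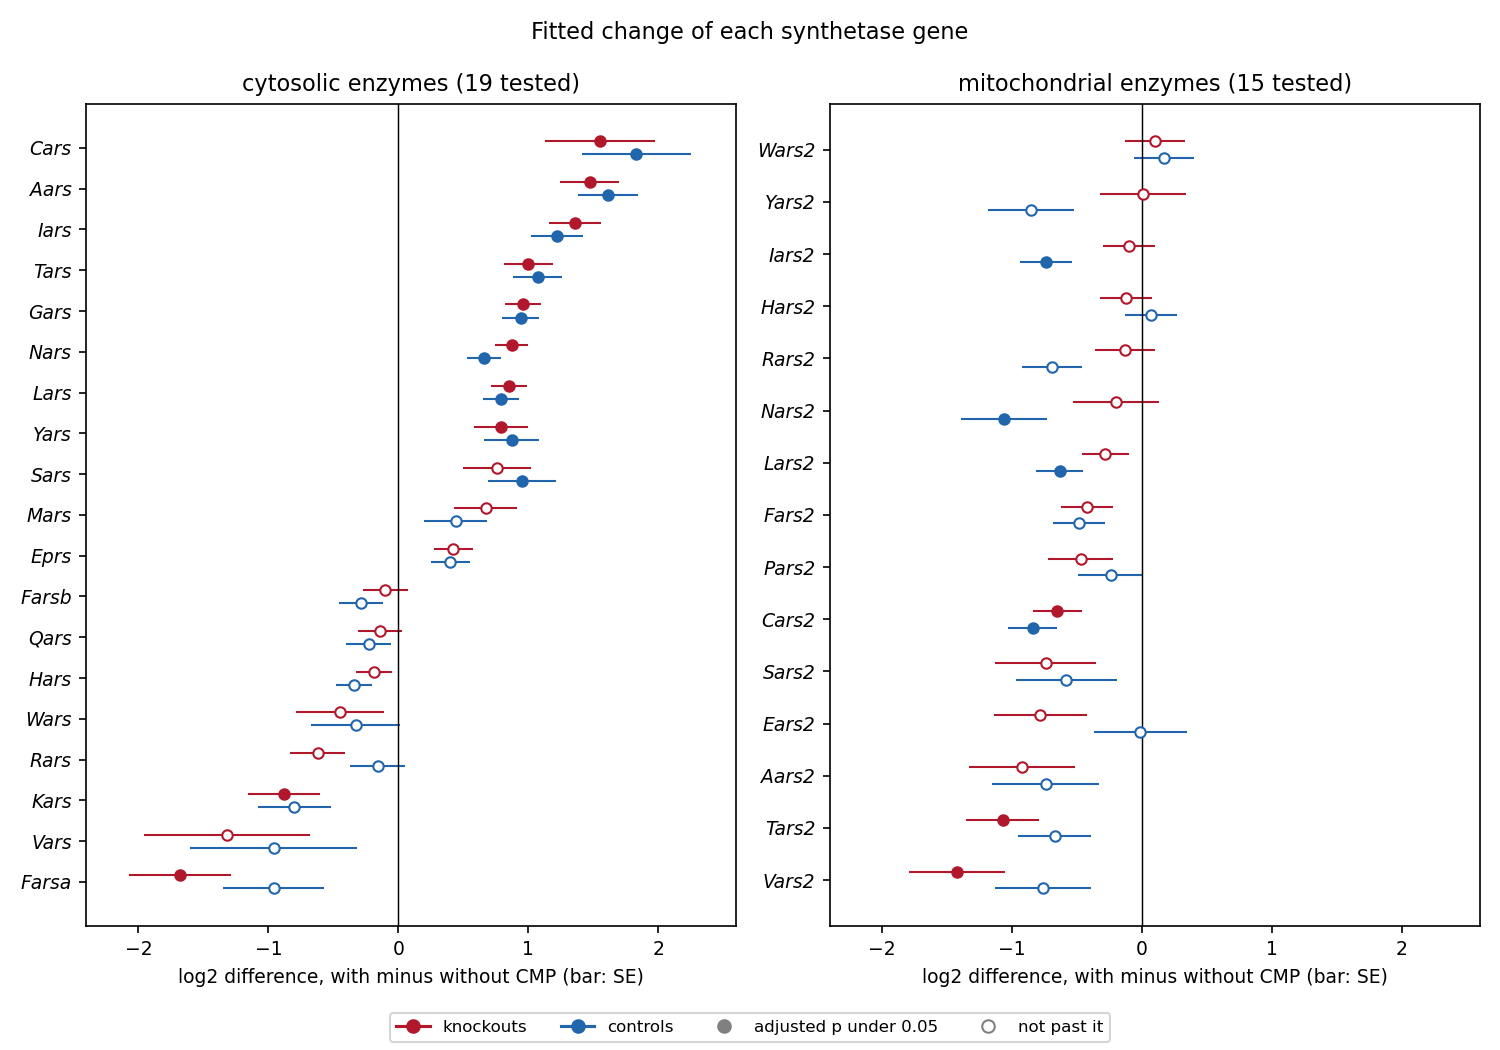
Fitted log2 difference with minus without CMP of each tested gene in knockouts (red) and controls (blue), with bars for the SE and filled points past an adjusted p of 0.05. Cytosolic genes run from Cars at 1.55 to Farsa at -1.68 in knockouts, and 13 of 15 mitochondrial genes lie below 0 in each genotype.

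Set side by side for the same amino acid, the cytosolic and the mitochondrial gene differed in their response in most pairs. In 15 pairs, with Eprs paired with both Ears2 and Pars2, the cytosolic difference was the higher in 11 pairs in knockouts and 11 in controls, and in all 3 sets in 9 pairs in knockouts and 10 in controls. The median over pairs of the cytosolic minus the mitochondrial difference was 1.07 in knockouts and 1.42 in controls. For threonine, Tars minus Tars2 was 2.07 ± 0.55 in knockouts and 1.74 ± 0.12 in controls (SD, n = 3 sets). For alanine, Aars minus Aars2 was 2.40 ± 0.84 in knockouts and 2.35 ± 0.60 in controls. For cysteine, Cars minus Cars2 was 2.20 ± 1.17 in knockouts and 2.67 ± 0.54 in controls. These values, among the largest of the pairs, exceed the SD between sets. Some other pairs above 0 did not. Eprs minus Ears2 was 0.41 ± 0.66 and Rars minus Rars2 0.53 ± 0.81 in controls, and Yars minus Yars2 was 0.78 ± 1.43 in knockouts. Pairs that ran the other way in all 3 sets were Farsa and Fars2 in both genotypes, at -1.26 ± 0.81 in knockouts and -0.48 ± 0.15 in controls, and Hars and Hars2 in controls, at -0.41 ± 0.43.

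**Figure D5:**
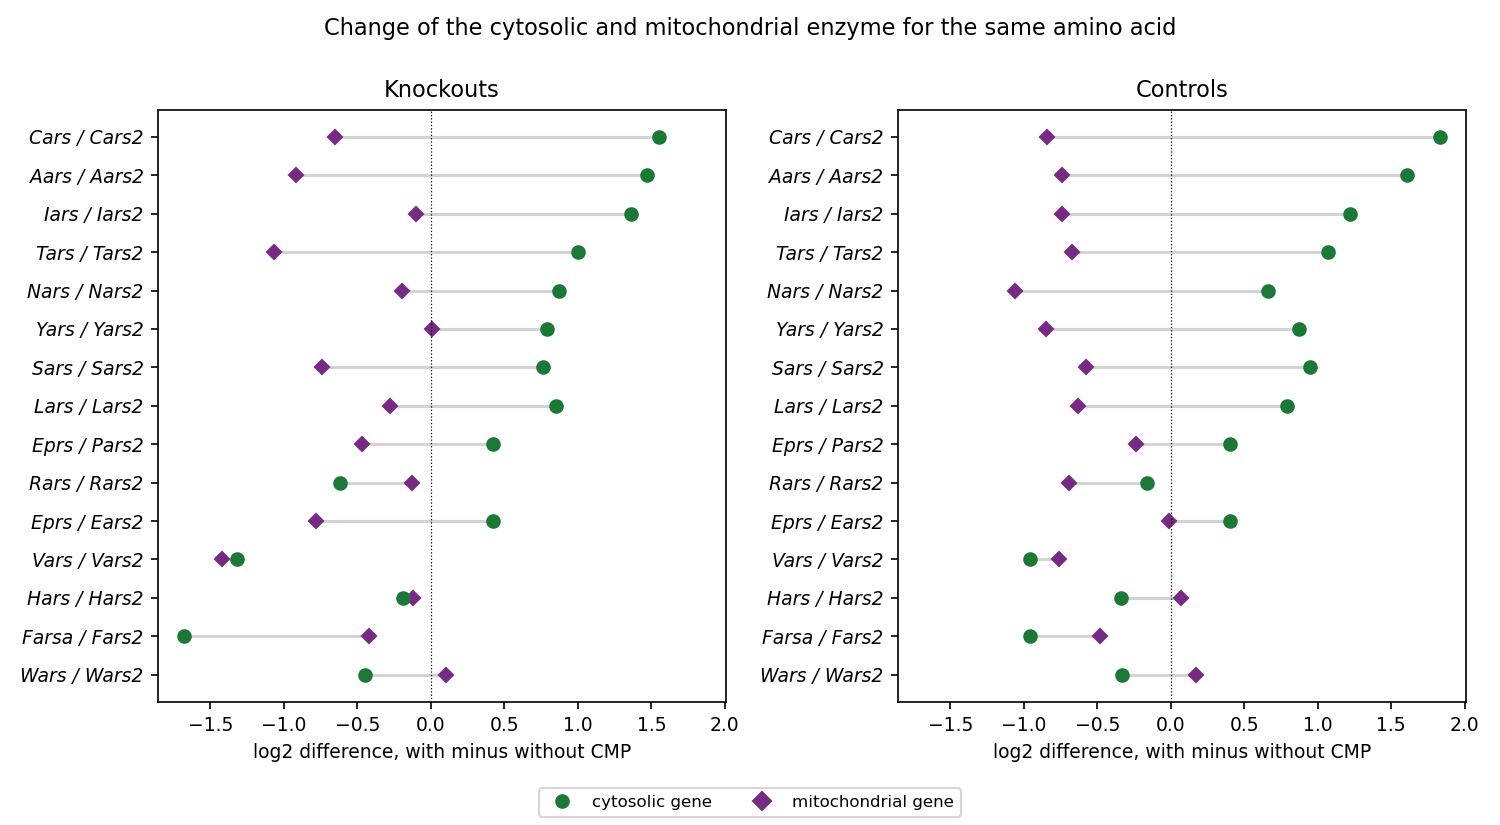
Fitted log2 difference with minus without CMP of the cytosolic gene (circle) and the mitochondrial gene (diamond) for the same amino acid, in knockouts (left) and controls (right). The circle lies to the right of the diamond in 11 of 15 pairs in each panel.

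Loss of Stat5a and Stat5b was not followed by a called difference in any synthetase. Of the 34 tested members 0 were called between knockouts and controls with CMP, and 0 without CMP, in the limma fit and in all alternative settings. At an unadjusted p under 0.05, 1 member passed with CMP, against 9.81% of all genes, and 0 without CMP, against 2.36% of all genes. The background was 0.0189% of genes in either comparison, which was Stat5a and Stat5b themselves. The knockout minus control difference of Aars was -0.24 with CMP (95% interval -0.73 to 0.25) and -0.11 without CMP (-0.60 to 0.39). For Gars it was -0.03 with CMP (-0.33 to 0.27) and -0.05 without CMP (-0.35 to 0.25). The member at an unadjusted p under 0.05 with CMP was Yars2, the mitochondrial tyrosyl enzyme, at 0.98 ± 0.33 (adjusted p = 0.507), whose differences in sets A, B and C were 0.29, 2.02 and 0.63.

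The CMP difference in knockouts minus that in controls was also called for 0 of 34 members, against 0 of all genes tested, while 1 member and 223 genes (2.11%) passed an unadjusted p under 0.05. That member was Iars2, at 0.65 with a 95% interval of 0.04 to 1.25 and differences of 0.26, 1.15 and 0.53 in the sets (adjusted p = 0.954). For Aars this value was -0.13 (-0.83 to 0.56), for Gars 0.03 (-0.40 to 0.45), for Nars 0.20 (-0.21 to 0.62), and for Farsa -0.72 (-1.94 to 0.49). The intervals leave room for differences of the size of the CMP difference itself for Farsa and for smaller ones for Gars and Nars. That calls differed between genotypes for Iars2, Lars2, Nars2, Vars2, Tars2, Farsa, Kars and Sars is therefore not shown to be a difference between genotypes.

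Several partners of the synthetases were measured on the same arrays. Of the 3 scaffold genes of the multisynthetase complex, 2 were lower with CMP in both genotypes, namely Aimp2 by -0.91 in knockouts and -0.98 in controls, and Eef1e1 by -0.78 in knockouts and -1.05 in controls. Aimp1 had 0.07 in knockouts and -0.09 in controls and did not pass. A list of 7 genes held those for editing of mischarged tRNA and for transamidation, and the formyltransferase Mtfmt, which does neither. Of these 7, 2 were lower in knockouts and 3 in controls, and Mtfmt was not called. Over all genes tested 9.72% were lower in knockouts and 11.6% in controls, beside which the counts for scaffolds, editing and the translation factors stand, each over few genes. Dtd1, a deacylase that clears D-amino acids from tRNA, was lower by -1.76 ± 0.25 in knockouts (adjusted p = 0.000985) and -1.85 ± 0.25 in controls (adjusted p = 0.00066). Aarsd1, which edits tRNA mischarged with serine in place of alanine, was lower by -1.01 in knockouts and -1.35 in controls. Gatc, a subunit of the mitochondrial transamidase that makes glutaminyl-tRNA, was lower by -0.82 in controls and had -0.58 in knockouts, and Gatb, another subunit, had -0.40 in knockouts and -0.65 in controls without passing.

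Of the 5 tested genes of cytosolic elongation and tRNA export 0 were called in either genotype, with 1 at an unadjusted p under 0.05 in each. Of 6 mitochondrial elongation and initiation genes 1 was lower in each, Tufm, which delivers charged tRNA to the mitochondrial ribosome, by -0.81 in knockouts and -0.88 in controls. Of 6 genes for selenocysteine tRNA 1 was lower in each, the elongation factor Eefsec, by -1.31 in knockouts and -1.39 in controls. The share of all genes called lower was 9.72% in knockouts and 11.6% in controls.

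Of the 8 genes listed for the eIF2 kinases, ATF4 and their partners, 2 were higher with CMP in knockouts and 4 in controls, against 9.03% of all genes in knockouts and 10.6% in controls. Ddit3, which encodes the stress factor CHOP, was higher by 1.09 ± 0.30 in knockouts (adjusted p = 0.0275) and 2.05 ± 0.30 in controls (adjusted p = 0.00103). Cebpg, a C/EBP family partner of ATF4, was higher by 0.76 ± 0.15 in knockouts (adjusted p = 0.00531) and 1.0 ± 0.15 in controls (adjusted p = 0.00106). Cebpb was higher by 1.21 in controls (adjusted p = 0.0279) and had 0.43 in knockouts (adjusted p = 0.41), where sets A, B and C gave 1.15, -0.78 and 0.93. Eif2ak3, the kinase PERK of the endoplasmic reticulum, was higher by 0.67 in controls (adjusted p = 0.0465) and had 0.12 in knockouts (adjusted p = 0.734). Atf4 itself had 0.21 in knockouts (adjusted p = 0.61) and 0.78 in controls (adjusted p = 0.0551). Its knockout value joined 0.64, -0.82 and 0.82 in sets A, B and C, so set B alone was below 0, while the controls had 0.97, 0.71 and 0.66. Eif2ak4, the kinase GCN2 that senses uncharged tRNA, had -0.08 in knockouts and 0.16 in controls and did not pass.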

How the data were processed

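Total RNA was labelled and hybridised by the Affymetrix standard protocol, per the labels. The authors deposited linear intensity signals made with MAS5, per the submitters' processing notes, for 45101 probe sets on 12 arrays. Scaling settings are not given in the sources used here, and with 2% trimmed from each end every array averaged 500. Probe sets with a single symbol numbered 34958, with several 932 and with none listed 9211.

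Signals were taken as log2(signal + 32), so that differences of dim genes are understated, and genes with a mean log2 of 6.76 or more were kept, which is the median of all probe sets. limma 3.58.1 in R 4.3.3 fitted the 4 groups with the naming set as a block over all 12 arrays, with two-sided tests and Benjamini-Hochberg adjustment over 10583 genes. The naming sets served as the replicate number: arrays of the same set deviated together from their group means (r from 0.41 to 0.77 over 18 pairs), while pairs of different set and group gave -0.64 to 0.28 over 36 pairs. The fit was run on simulated data in which each gene had independent noise of equal size on every array. That check cannot show how the calls behave with an outlying array or without the naming set block. Precision is limited by the 12 arrays.

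The members and lists were chosen with earlier results of these data known. Per-array values are given for the 8 cytosolic and 6 mitochondrial genes of smallest p in either CMP contrast and for genes called against the majority of their list. Of each list, up to 4 tested genes of smallest p were to be named, and Atf4 and Eif2ak4 were added after their values were seen.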

Additional observations from a re-analysis of the deposited data

How the results depend on the processing

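Between knockouts and controls, with or without CMP, 0 synthetases were called under 29 alternatives, and 0 under 28 in the difference of the CMP effects, which already uses the arrays of all groups. Without the naming set block 2 members were called in knockouts and 2 in controls, against 13 in each with it. The 2 in each genotype were higher cytosolic genes, with 0 lower mitochondrial ones. With the naming set as a random block the counts were 12 in knockouts and 13 in controls. Array weights gave 21 members in knockouts and 23 in controls, with 7 and 10 lower mitochondrial genes. With the beta-actin 3′ to 5′ ratio added to the fit the count in knockouts was 4, all higher cytosolic genes. There were 0 lower mitochondrial genes in knockouts and 2 in controls, and the mitochondrial median in controls was -0.38. Calls over all genes tested also fell in both genotypes in that fit. Centring on array medians left 5 higher cytosolic and 9 lower mitochondrial genes in controls, with medians of 0.17 and -0.94. More of all genes tested were called in controls with that centring. Quantile normalization gave a cytosolic median of 0.54 in controls. The mean over all probe sets of a gene gave 2 lower mitochondrial genes in controls with a median of -0.42, and turned Iars2 to 0.20 and Lars2 to 0.07 there. Array weights turned Yars2 in knockouts to -0.54 (adjusted p = 0.0472). A fit of the knockout arrays alone called 6 members with 0 lower mitochondrial genes, among 662 of all genes. Counting the knockout array without CMP of set B as a control, as its treatment note has it, called 8 members in knockouts with 0 lower mitochondrial genes. The cause of these shifts was not tested.

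Leaving out 1 array at a time gave 7 to 14 members in knockouts and 8 to 22 in controls. The count was 7 in knockouts without the knockout array without CMP of sets B or C, and 8 in controls without any one control array without CMP, or 22 without the knockout array with CMP of set B. Leaving out sets A, B or C gave 5, 17 and 2 in knockouts and 4, 19 and 3 in controls. Higher cytosolic genes ranged from 2 to 11 in knockouts and from 3 to 10 in controls, and lower mitochondrial genes from 0 to 5 and from 0 to 9. The cytosolic median ranged from 0.44 to 0.77 in knockouts and from 0.42 to 0.61 in controls, and the mitochondrial one from -0.58 to -0.23 and from -0.73 to -0.53.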
